A study of Mus musculus with 8 samples.

Results

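The ISG15 system attaches a small ubiquitin-like protein, ISG15, to other proteins, and it is read here together with a set of interferon-induced antiviral effectors. The group holds 10 genes chosen by name, 5 of the ISG15 system (Isg15, Usp18, Herc6, Uba7 and Ube2l6) and 5 effectors (Rsad2, Cmpk2, Mx1, Mx2 and Bst2). A probe belonged to a member when its accession matched that gene in RefSeq, which gave 11 probes for 8 of the 10 genes, out of 55681 probes on the array. Mx1 and Mx2 matched no probe by accession and are not analysed here, and whether a probe under another identifier reads them was not checked. RefSeq lists both as transcribed pseudogenes in the mouse reference assembly. Of the 8 genes with a probe, 6 were kept by the filter on dim signal (Isg15, Uba7, Ube2l6, Rsad2, Cmpk2 and Bst2), which asked for at least 4 of 8 arrays well above background. Usp18 and Herc6 were not kept.

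Interferons bind receptors whose signal switches on genes that carry an interferon response element in their promoter. IRF2 binds the same kind of element and is known mainly as a repressor of interferon-induced genes. ISG15 is joined to target proteins in a cascade: UBA7 activates it, UBE2L6 carries it, HERC6 is the main ligase in mice, and USP18 removes it again and also dampens signalling at the interferon receptor. Among the effectors, RSAD2 (viperin) makes a chain-terminating nucleotide, CMPK2 supplies its precursor, MX proteins are antiviral GTPases, and BST2 (tetherin) holds budding viruses at the cell surface.

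The RNA was that of sorted mouse intestinal stem cells with high Lgr5 reporter signal, from 4 control and 4 Irf2_AhcKO samples, each on its own 1-colour Agilent array. Controls carried floxed Irf2 alleles (Irf2fl/fl) and the reporter allele Lgr5-EGFP-Ires-CreERT2. Samples labelled Irf2_AhcKO carried the same alleles and in addition Ah-Cre, a recombinase whose promoter is switched on by β-naphthoflavone. All mice of both groups received β-naphthoflavone on 5 consecutive days, and cells were taken 1 month later. Both groups also carry the CreERT2 of the reporter allele. No age was stated for the mice. The series text gives the replicates both as 4 independent mice and as 2 biological replicates, so p-values measure the spread between samples, which may be technical. The question posed is how expression in the stem cells changes when Irf2 is deleted.

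The arrays lay on 2 slides, scanned separately, with replicates 1 and 2 of each group on slide 1 and replicates 3 and 4 on slide 2. For both slide 2 controls, the scanner data are named as if they also carried Ah-Cre, so slide 1 gives each comparison without these controls. The targeted gene, Irf2, was not lower in Irf2_AhcKO. It stood 0.27 higher in log2 signal (SE 0.12, limma adjusted p = 0.429), and no source used here says whether its probe lies in the deleted part. All directions are therefore between arrays as labelled. No spot was saturated, and 61.4% to 69.8% per array were bright enough to count as well above background. The stem cell markers Lgr5, Ascl2, Smoc2, Axin2 and Cdca7 and the epithelial markers Epcam, Cdh1, Krt8, Krt19 and Vil1 were well above background on all 8 arrays, and Olfm4 had no matched probe. All 6 enterocyte markers were also well above background on all 8 arrays. Of 17 leukocyte markers, 8 were so on all 8 arrays and 4 (Coro1a, Laptm5, Ms4a1 and Itgax) on none.

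Promoter windows were read first, since IRF2 acts through a DNA element. RefSeq windows (GRCm38.p6) run from 250 bases before to 50 bases after the gene start and were found for 7 members, all but Usp18, Mx1 and Mx2. The core of the interferon response element was searched as GAAANNGAAA on both strands, where N is any base and matches may overlap. It was present in 3 of the 7 windows, those of Isg15, Bst2 and Rsad2, and in 3.44% of all 32851 windows. The windows of the 3 genes with a match are shown, and that of Uba7, which holds none and had the smallest unadjusted p of the members. Each is written 5′ to 3′ along its gene, with the matches in capitals. The windows lie at chr4:156200769-156201068 (Isg15, minus strand), chr8:71537423-71537722 (Bst2, minus strand), chr12:26456403-26456702 (Rsad2, minus strand) and chr9:107975317-107975616 (Uba7, plus strand).
Isg15: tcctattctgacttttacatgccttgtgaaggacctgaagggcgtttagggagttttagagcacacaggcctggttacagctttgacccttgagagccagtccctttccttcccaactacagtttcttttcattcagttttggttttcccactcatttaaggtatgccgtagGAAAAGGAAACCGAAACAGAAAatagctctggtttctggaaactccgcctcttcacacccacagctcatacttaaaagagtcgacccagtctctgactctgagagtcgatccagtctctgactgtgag
Bst2: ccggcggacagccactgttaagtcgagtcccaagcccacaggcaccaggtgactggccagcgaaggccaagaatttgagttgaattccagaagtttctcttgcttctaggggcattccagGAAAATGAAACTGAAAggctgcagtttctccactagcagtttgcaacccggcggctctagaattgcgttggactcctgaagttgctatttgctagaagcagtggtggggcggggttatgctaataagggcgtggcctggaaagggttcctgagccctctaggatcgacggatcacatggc
Rsad2: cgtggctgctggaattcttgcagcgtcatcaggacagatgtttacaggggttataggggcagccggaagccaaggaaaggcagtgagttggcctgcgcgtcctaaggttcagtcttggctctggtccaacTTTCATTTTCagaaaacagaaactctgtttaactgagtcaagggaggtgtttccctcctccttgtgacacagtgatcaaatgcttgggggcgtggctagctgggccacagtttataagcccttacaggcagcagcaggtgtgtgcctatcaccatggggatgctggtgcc
Uba7: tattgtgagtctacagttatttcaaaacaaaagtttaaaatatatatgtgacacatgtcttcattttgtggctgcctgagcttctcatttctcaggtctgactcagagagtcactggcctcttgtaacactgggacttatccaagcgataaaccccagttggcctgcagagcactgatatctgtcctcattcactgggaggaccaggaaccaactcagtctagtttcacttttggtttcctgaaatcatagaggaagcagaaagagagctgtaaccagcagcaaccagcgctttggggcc

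In Isg15, 3 overlapping matches began 78, 72 and 66 bases before the gene start and formed 1 continuous stretch. In Bst2, 2 overlapping matches began 130 and 124 bases before the start. The tripled form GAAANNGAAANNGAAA was present in Isg15 and Bst2 and in 0.116% of all windows. Rsad2 had 1 match, on the other strand, beginning 120 bases before the start. The windows of Uba7, Ube2l6, Herc6 and Cmpk2 held no exact match to these letters. This says nothing about elements elsewhere or about other spellings of the core within the windows, which were not searched. The Uba7 window holds tttcacttttggtttc, close to the tripled form read on the other strand, and the exact search did not count it. The STAT-type motif TTCNNNGAA was present in Bst2 only, beginning 136 bases before the start and overlapping the core match, and in 8.3% of all windows. A match is a description of letters and was not tested as a binding site.

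**Figure D1:**
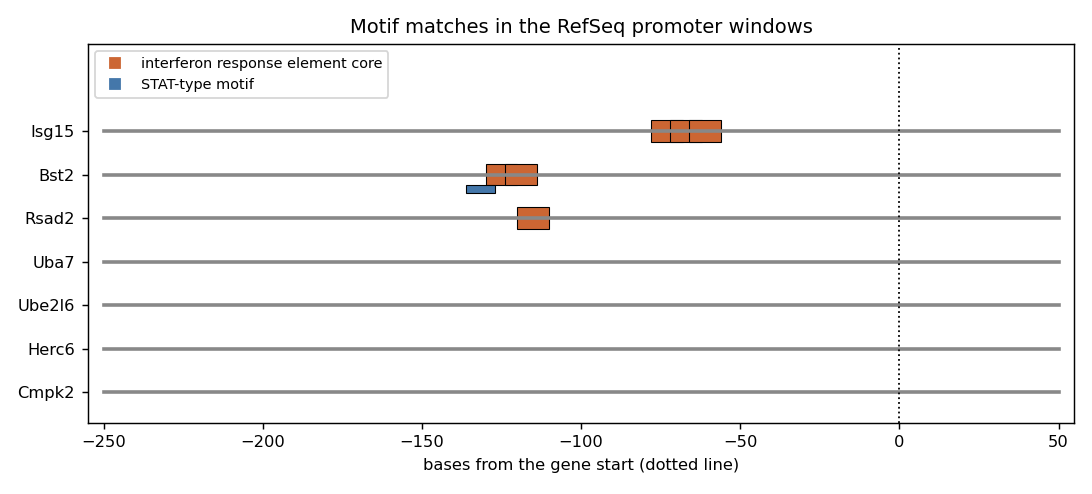
Motif matches in the promoter windows of 7 members, drawn by distance in bases from the gene start (dotted line); grey lines are the windows, orange boxes GAAANNGAAA matches and the blue box a TTCNNNGAA match. Matches lie 78 to 66 bases before the start in Isg15, 130 and 124 in Bst2 and 120 in Rsad2, and the other 4 windows hold none.

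Of the 6 members kept, none passed the threshold between the groups, which was a Benjamini-Hochberg adjusted limma p below 0.05 over 25404 features. Over all features 0.0984% passed (25 features, with 0.0551% higher and 0.0433% lower, or 9 higher of 20 with median centring), and none did with the replicate number as a block, where 3293 had an unadjusted limma p below 0.05. Without 1 array the count was 25 when control replicate 4 was left out and between 0 and 11 when any other array was. At an unadjusted limma p below 0.05 stood 3 members, Uba7 and Rsad2 with higher and Bst2 with lower signal in Irf2_AhcKO, beside 11.7% of all features (5.98% higher and 5.75% lower). Members were kept partly on signal in either group, so these counts describe the genes and support nothing beyond them. Signals are given as log2 values after subtraction of each array's 75th percentile. They compare arrays for 1 probe and never 1 probe with another.

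ISG15 itself, the modifier, was measured by a bright and a dim probe. On the bright probe the log2 signal in control replicates 1 to 4 was -0.80, -0.64, -1.45 and -1.14. In Irf2_AhcKO replicates 1 to 4 it was -1.18, -0.91, -1.38 and -1.38. The groups overlapped, and in both groups the arrays of slide 2 lay below those of slide 1. The log2 difference was -0.20 (SE 0.11, 95% interval -0.47 to 0.06, limma adjusted p = 0.498), at -0.33 on slide 1 and -0.08 on slide 2, and -0.13 without Irf2_AhcKO replicate 1. Slide 2 minus slide 1 was -0.45 in log2 signal (SE 0.11, limma adjusted p = 0.0194), and Isg15 was the only kept member that passed there, beside 35.5% of all features. The dim probe exceeded background on 2 arrays of each group, and its groups differed by 0.10 in log2 signal (SE 0.38, limma adjusted p = 0.936 over kept probes). The mean of both probes gave -0.05. The unadjusted limma p of Isg15 fell below 0.05 in 2 of 21 alternatives, with normexp and without control replicate 3. Of the 21, 1 used that mean of both probes and the others the bright probe.

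UBA7 is the activating enzyme that starts the cascade. Its log2 signal was 0.87, 1.27, 0.78 and 0.88 in control replicates 1 to 4. In Irf2_AhcKO replicates 1 to 4 it was 1.90, 2.14, 1.23 and 1.57. On each slide both Irf2_AhcKO arrays stood above both controls. Such a separation on both slides, in the same direction, was seen in 12.8% of all features (5.74% with Irf2_AhcKO higher and 7.1% lower) and in 2 kept members, Uba7 and Rsad2. Over the 8 arrays the groups met, since control replicate 2 on slide 1 stood just above Irf2_AhcKO replicate 3 on slide 2. The log2 difference was 0.76 (SE 0.14, 95% interval 0.42 to 1.1, limma unadjusted p = 0.00108, adjusted p = 0.159). It was 0.95 on slide 1 and 0.57 on slide 2. With a trended and robust variance Uba7 passed (limma adjusted p = 0.0407), the only alternative of 21 in which any member did. Over the 21 alternatives its limma adjusted p values lay between 0.0407 and 0.906.

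UBE2L6, the carrier enzyme, showed no separation of the groups. Its log2 signal was 1.36, 1.63, 1.39 and 1.71 in control replicates 1 to 4 and 1.50, 1.29, 1.26 and 1.43 in Irf2_AhcKO replicates 1 to 4. All 8 arrays lay within a narrow range and the groups overlapped. The log2 difference was -0.15 (SE 0.11, 95% interval -0.42 to 0.12, limma adjusted p = 0.598), at -0.10 on slide 1 and -0.21 on slide 2. Without control replicate 4 it was -0.08. The enzyme that starts the cascade thus stood higher by value, and the modifier and carrier were slightly lower by value, none of them past the threshold.

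HERC6, the ligase, was near the limit of detection. Its first probe exceeded background on 1 control array and on 2 Irf2_AhcKO arrays, and replicate 4 had the highest value in both groups (-2.04 and -2.24). The other values of that probe lay between -5.69 and -3.73. Its second probe was well above background on no control array and on Irf2_AhcKO replicates 1 and 2, at -3.80 and -2.47, with replicates 3 and 4 at -6.16 and -5.38. No fold is given, since 2 of its 4 Irf2_AhcKO arrays and all controls were not well above background. The groups overlapped on both probes.

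USP18, the protease that removes ISG15, was not well above background on any of the 8 arrays. Its probe had values between -6.14 and -4.27 in controls and between -5.74 and -4.75 in Irf2_AhcKO, which only bounds the level, and no fold is given.

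RSAD2, or viperin, was the effector with the widest separation. Its log2 signal was -1.95, -2.25, -2.56 and -4.04 in control replicates 1 to 4, the last not well above background. In Irf2_AhcKO replicates 1 to 4 it was -1.38, -0.53, -1.49 and -1.28. Every Irf2_AhcKO array stood above every control array, the only kept member whose groups did not overlap, beside 3.85% of all features (1.74% with Irf2_AhcKO higher and 2.11% with Irf2_AhcKO lower). The log2 difference was 1.53 (SE 0.36, 95% interval 0.68 to 2.39, limma unadjusted p = 0.00376, adjusted p = 0.236). It was 1.15 on slide 1, 1.92 on slide 2 and 1.16 without control replicate 4. With normexp background correction, in which an offset compresses dim signals, it was 0.64 (SE 0.14, limma adjusted p = 0.11).

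CMPK2 is the kinase encoded next to Rsad2 on chromosome 12, with no annotated gene between them in RefSeq. Its brighter probe had log2 signals of 0.14, 0.71, -0.13 and 0.18 in control replicates 1 to 4. In Irf2_AhcKO replicates 1 to 4 they were 0.40, 1.11, 0.51 and 0.43. Replicate 2 was the highest array in both groups, and the groups overlapped through control replicate 2. The log2 difference was 0.39 (SE 0.19, 95% interval -0.07 to 0.84, limma adjusted p = 0.469), at 0.33 on slide 1 and 0.44 on slide 2, and 0.26 without Irf2_AhcKO replicate 2. On the second probe the groups differed by 0.19 in log2 signal (SE 0.18, limma adjusted p = 0.694 over kept probes). The neighbours thus shared the sign of their values, and only Rsad2 had groups that did not overlap.

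BST2, or tetherin, had lower signal in Irf2_AhcKO by value. Control replicate 1 had a log2 signal of -0.68 and the remaining controls had signals from -1.04 to -0.98. The signal was -1.28, -1.52, -1.60 and -1.01 in Irf2_AhcKO replicates 1 to 4. Irf2_AhcKO replicate 4 lay among the controls and the other 3 below them. The log2 difference was -0.43 (SE 0.16, 95% interval -0.80 to -0.06, limma unadjusted p = 0.0289, adjusted p = 0.377). It was -0.56 on slide 1, -0.29 on slide 2 and -0.21 with normexp. The unadjusted limma p rose to 0.284 on slide 2 alone and to 0.0805, 0.0515, 0.0819 and 0.0815 without control replicate 1, control replicate 4, Irf2_AhcKO replicate 2 and Irf2_AhcKO replicate 3.

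**Figure D2:**
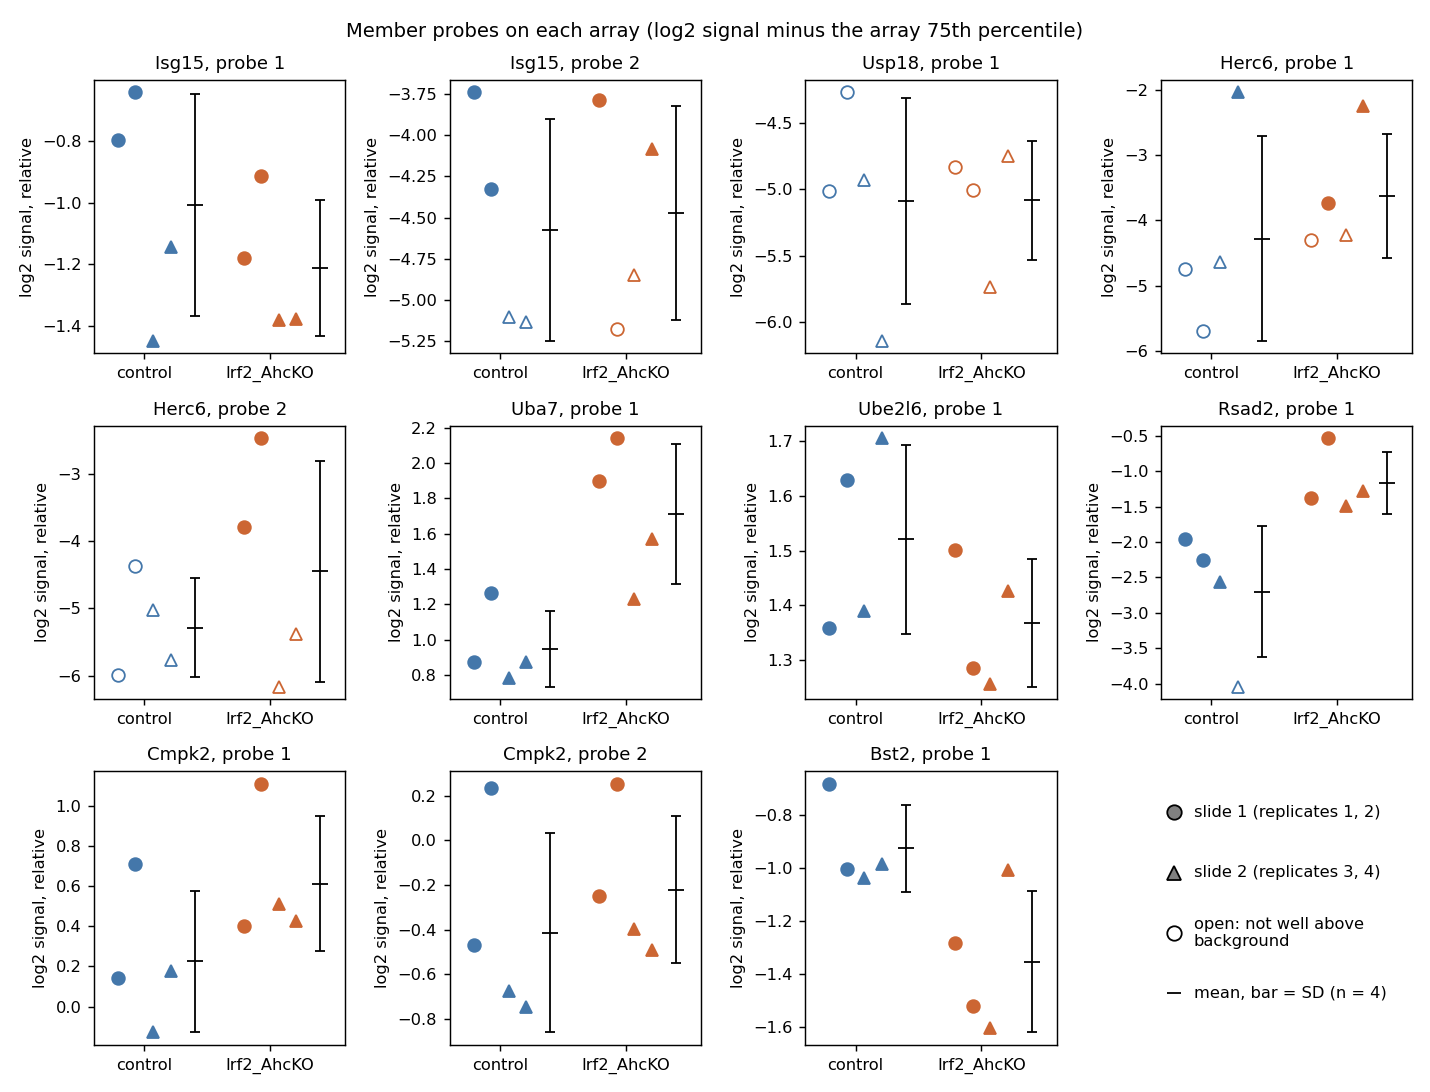
Log2 signal after subtraction of the 75th percentile of each array (y axis, scaled per panel) for the 11 member probes on each of 8 arrays, with circles for slide 1, triangles for slide 2, open symbols for spots not well above background, and mean and SD (n = 4). All Irf2_AhcKO arrays of Rsad2 (-1.49 to -0.53) lie above all controls (-4.04 to -1.95), Bst2 has 3 of 4 Irf2_AhcKO arrays below the controls, and every Usp18 symbol is open.

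The difference between groups did not pass a test of change between slides in any of the 25404 features (interaction of slide and group, limma adjusted p below 0.05), and 4.29% had an unadjusted p below 0.05. None of the 6 members was among the latter, with unadjusted limma p from 0.209 for Uba7 to 0.786 for Cmpk2. All 6 kept the sign of their difference on both slides. With 2 arrays of a group on a slide, this test has little precision.

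**Figure D3:**
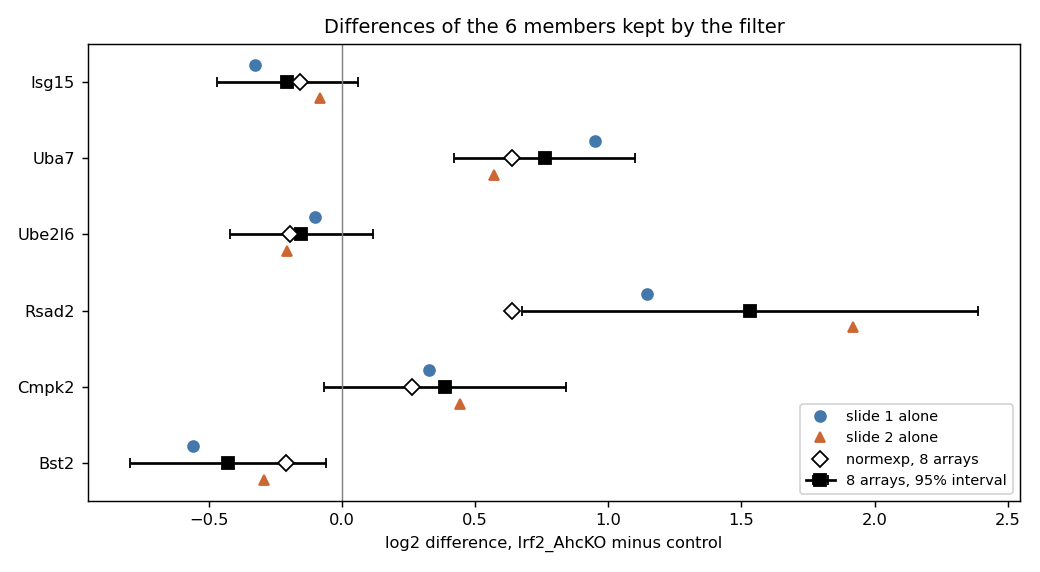
Log2 differences (x axis, Irf2_AhcKO minus control) of the 6 kept members, with squares and 95% intervals from 8 arrays, circles and triangles for each slide alone and diamonds for normexp. The intervals of Uba7 (0.42 to 1.1), Rsad2 (0.68 to 2.39) and Bst2 (-0.80 to -0.06) exclude 0, those of Isg15, Ube2l6 and Cmpk2 include it, and the normexp value of Rsad2 is 0.64.

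By role, the 3 kept genes of the ISG15 system had a median log2 difference of -0.15, with 1 positive and 2 negative values. The 3 kept effectors had a median of 0.39, with 2 positive values and 1 negative. The first median was 0.00 with no filter, which adds Usp18 and Herc6, and the second -0.02 where all 8 arrays had to be well above background, which drops Rsad2. A log2 difference above 0.5 in size, which Uba7 and Rsad2 had, was seen in 7.21% of all features. All 25404 features had a median of 0.00 and a middle 95% from -0.56 to 0.61, so Uba7 and Rsad2 lay outside that range and the other 4 inside it. Genes with an exact GAAANNGAAA match in the promoter window did not share a sign by value. Rsad2 stood at 1.53, Isg15 at -0.20 (0.10 on its dim probe) and Bst2 at -0.43. Among kept members without an exact match, Uba7 stood at 0.76, Cmpk2 at 0.39 and Ube2l6 at -0.15. None of these differences passed the threshold, and a link between match and sign was not tested.

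Of 45 other interferon-induced genes, 37 were kept. Of these, 2 rose, 1 fell and the others did not pass, and with the replicate number as a block none passed. The count of 3 was 9 with normexp, 8 with a trended and robust variance, 1 with no filter and 0 within either slide alone. Of the 37, 3 passed without control replicate 4, 2 without control replicate 1, 1 without control replicate 3 or Irf2_AhcKO replicate 4, and none without any other single array. At an unadjusted limma p below 0.05, 11 were higher and 11 lower, and the list's median log2 difference was -0.02. The genes of smallest p were Ifit1, an RNA-binding antiviral protein, its relatives Ifit1bl1 and Ifit2, and Ifi27l2b, an interferon-induced gene. The Ifit genes are related in sequence, so their probes may read each other. Ifit1 is among the 2 that rose, with a log2 difference of 3.23 (limma adjusted p = 0.0107) that uses the control signals as measured. No control array measured it well above background, so it was kept through the Irf2_AhcKO arrays alone. Against a floor it rose at least 2.41-fold, and the p does not belong to this bound. As the floor, each control array took either the probe's own signal or the dimmest signal that was still well above background, whichever was higher. This bound was computed for the processed signal only. Ifit1bl1 rose by 2.55 in log2 signal (SE 0.26, limma adjusted p = 0.0329), and Ifi27l2b fell by 1.08 (SE 0.10, limma adjusted p = 0.0294). Ifit2 stood at 2.55 and did not pass (SE 0.30, limma adjusted p = 0.0516). The members Rsad2 and Uba7 thus had the sign of the Ifit genes and Bst2 that of Ifi27l2b.

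Upstream of the members, all 19 receptors, kinases, factors and inhibitors of interferon signalling were kept and none passed. At an unadjusted limma p below 0.05, 2 were higher and 2 lower, with a list median of 0.07. Among these, the kinase Jak2 stood at 0.28 in log2 difference (SE 0.11). Irf7, a factor that amplifies type I interferon, stood at -0.59 (SE 0.17, limma adjusted p = 0.318) and the receptor chain Ifnar1 at -0.65 (SE 0.27). The intermediates were therefore on both sides of 0, as were the members.

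Among the relatives of the ISG15 system in other ubiquitin-like pathways, values were small. Of 32 genes 31 were kept, none passed, and at an unadjusted limma p below 0.05 none was higher and 1 lower. Their log2 differences ran from -0.44 to 0.18, with a median of -0.04. Trim25, a ubiquitin ligase that can also attach ISG15, stood at -0.19 (SE 0.08, limma adjusted p = 0.421). The activating enzyme Uba6 stood at -0.37 (SE 0.18), Uba3, which activates NEDD8, at -0.44 (SE 0.22), and the ubiquitin protease Usp25 at 0.18 (SE 0.10). The value of Uba7 lay above all 31 of these genes.

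**Figure D4:**
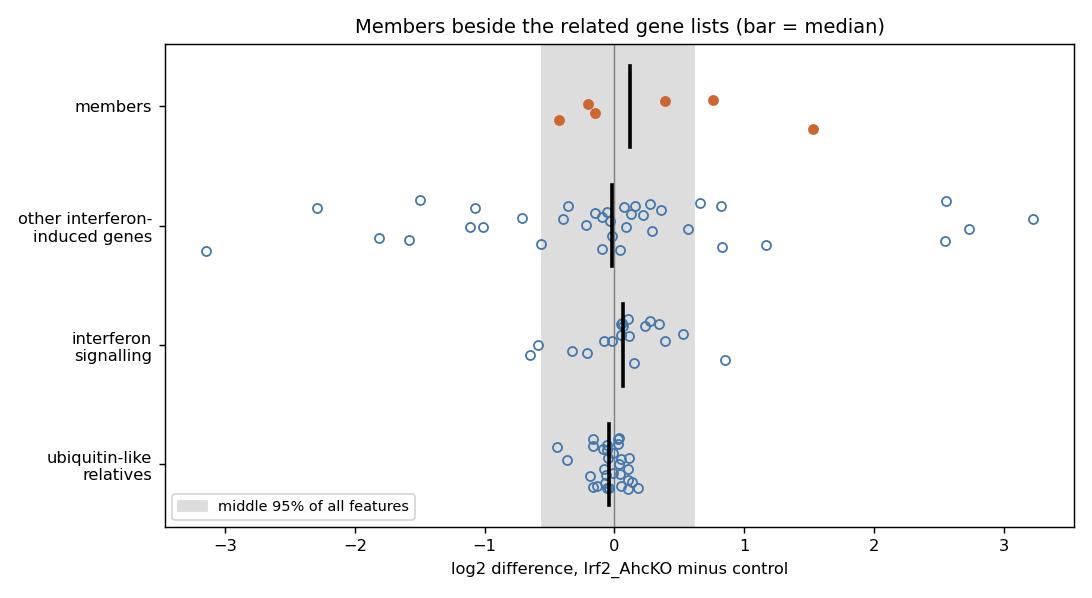
Log2 differences (x axis, Irf2_AhcKO minus control) of the 6 kept members (filled) beside 37 other interferon-induced genes, 19 interferon signalling genes and 31 ubiquitin-like relatives (open), with each median as a bar and the middle 95% of all features in grey. The interferon-induced genes spread to both sides (-3.15 to 3.23), the ubiquitin-like relatives stay between -0.44 and 0.18, and the members run from -0.43 to 1.53.

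Markers of other cells were read beside these values, since Bst2, Rsad2 and Isg15 are also made by leukocytes and by differentiated epithelium. Of the 6 enterocyte markers none passed, and 5 were lower in Irf2_AhcKO at an unadjusted limma p below 0.05. The log2 of their summed signals without Sis was 6.47 to 6.77 in controls and 6.01 to 6.33 in Irf2_AhcKO, so these sums did not overlap. The brightest of these markers, Fabp2 (mean 6.57 in controls and 6.07 in Irf2_AhcKO), largely sets this sum. Taken singly, 3 of the 6 markers had groups that did not overlap, beside 3.85% of all features. With Sis, which was very high on 1 control array, the sum was 6.48 to 10.53 in controls and 6.01 to 6.34 in Irf2_AhcKO. Of the 11 leukocyte markers kept none passed, 7 had a positive and 4 a negative difference, and the median was 0.05. Those of smallest p were all positive: Cd79b, a B cell receptor part, stood at 1.33 (SE 0.28, with 2 of 4 controls well above background) and Fcer1g, an Fc receptor chain, at 0.53 (SE 0.20), and Csf1r at 0.14 and Rac2 at 0.20. The log2 of the summed signals of the 11 was 5.51 to 5.64 in controls and 5.56 to 5.71 in Irf2_AhcKO, and these sums overlapped. The brightest of the 11, Csf1r and Siglech (control means 4.52 and 4.29), largely set this sum, so it does not measure leukocyte content. Of the 5 stem cell markers kept none had an unadjusted limma p below 0.05 (median -0.15), nor of 4 mesenchyme markers kept (median -0.30, with Col1a1 well above background on no array). Of 3 Paneth cell markers kept, 1 was higher at that threshold, the protease Mmp7 (0.52, SE 0.13). The part of any other cell type in the members' values was not tested. In sorted bulk samples, fewer cells of a type and less RNA per cell cannot be told apart.

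The pattern of Isg15 over the 8 arrays was set beside that of every feature by the root mean square distance between centred log2 profiles. The 6 nearest named genes were 2310022A10Rik (0.0722), Bpifb4 (0.0734), Insl5 (0.0736), Glce (0.0790), Ush1c (0.0837) and Ubxn6 (0.0841), against a median distance of 0.365. The profile of Isg15 itself had a root mean square of 0.279. These genes were picked by this same distance, so their closeness was fixed by the choice. The profile of Isg15 holds its slide difference of -0.45, and 35.5% of all features passed between slides. The part of the slides in this likeness was not tested. No other member was near by this distance, which is not scaled and also grows with a gene's own spread. A flat profile would stand at 0.279. Ube2l6 stood at 0.278, Bst2 at 0.335, Cmpk2 at 0.339, Uba7 at 0.521 and Rsad2 at 1.02, and between 6698 and 24945 features were nearer than these.

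**Figure D5:**
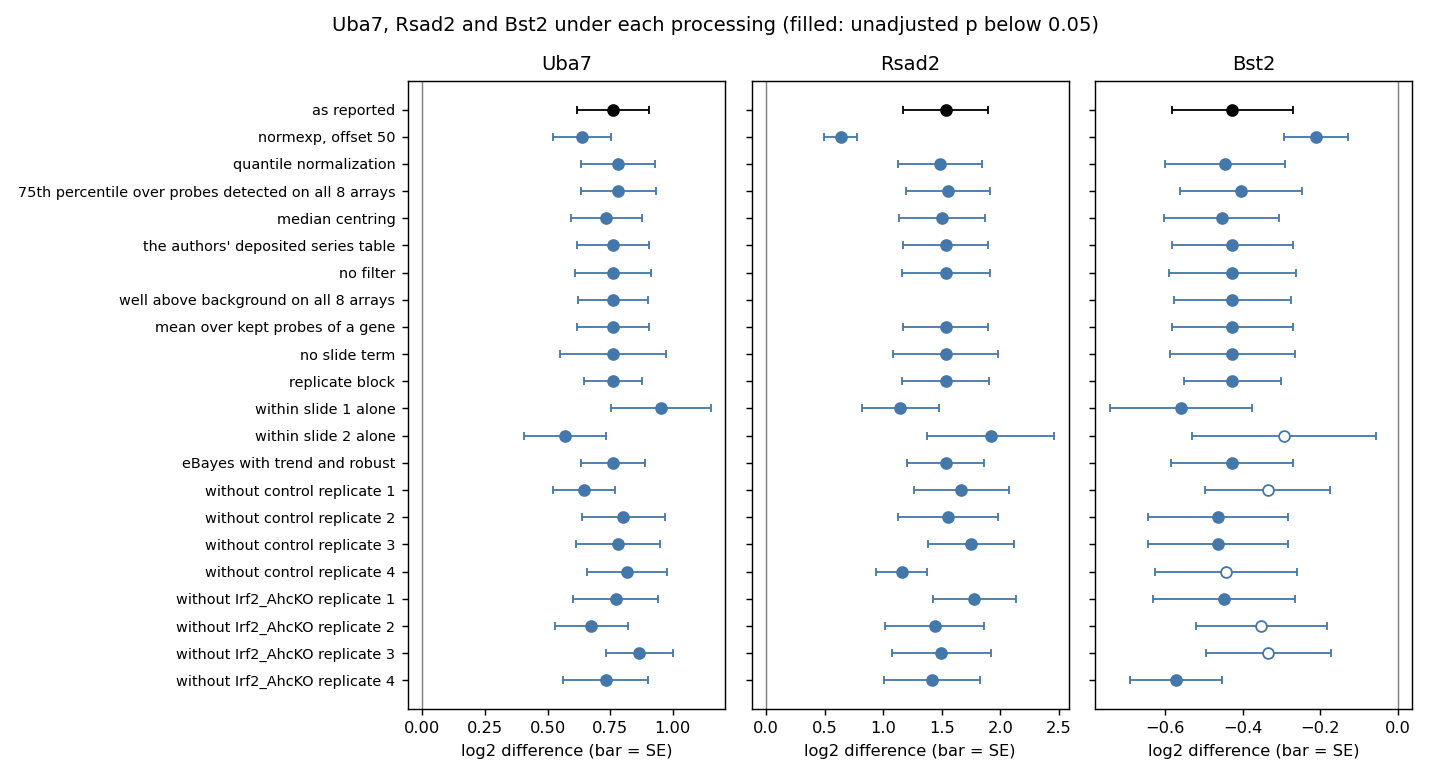
Log2 differences (x axis, Irf2_AhcKO minus control, bars are SE) of Uba7, Rsad2 and Bst2 as reported (black) and under each alternative (blue), filled where the unadjusted limma p was below 0.05. Uba7 (0.57 to 0.95) and Rsad2 (0.64 to 1.92) are filled throughout, Bst2 (-0.57 to -0.21) is open in 5 alternatives, and Rsad2 has no value where all 8 arrays had to be well above background.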

How the data were processed

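Intestinal stem cell RNA of 8 samples was measured on 1-colour Agilent arrays. Per the labels' protocols, cDNA was amplified with a whole-transcriptome kit from 20 ng total RNA and labelled with Cy3. Per the file headers, Agilent Feature Extraction 11.5.1.1 (also in the submitters' processing notes) made the deposited intensity of each spot, background-subtracted and detrended. The deposited series table repeats this intensity, uncentred and linear, scaled by an array constant of 6.41 to 6.90 whose origin is unknown (column medians 207 to 246).

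Processed intensities were log2-transformed and scaled by subtracting the 75th percentile over the 59305 spots per array that were not controls. Outlier spots were left out before spots were averaged per probe. Of 55681 probes, 28331 were named through RefSeq accessions (GRCm38.p6). None matched several genes, and the 27350 without a name were tested by identifier. Probes well above background on at least 4 of 8 arrays were kept, and the kept probe of highest mean stood for its gene, which left 25404 features. The comparison used limma 3.58.1 (R 4.3.3, two-sided) with a slide term. The test was checked on simulated data. Arrays carry no read depth, so their number limits the precision.

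Deviations from the group means correlated between arrays of the same number (r across features 0.46 to 0.53), which by the rule used (every r above 0.1) counts as pairing. With slide means removed, r was 0.05 and 0.21, so most of it lay between slides. The comparison kept the slide term, and the number as a block was an alternative. No label ties a number to a litter or day.

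Members and lists were chosen with earlier results of these data known. Named genes were the members, Irf2, up to 4 genes of smallest p per list, and the 6 nearest to Isg15. The single value of 1 list gene that this rule takes is not reported here, while the counts include it. Cell type markers named beside these came from lists of the same kind. Alternatives were other background correction, scaling, filters, probe rules, covariates, variance models and left-out arrays. Normexp (offset 50) used the median spot signal.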

Additional observations from a re-analysis of the deposited data

Results flagged for a closer look

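Of the 22 groups of 4 arrays formed by the 11 member probes, 2 held an array far from the other 3, where chance alone gives about 1 in 20. On the brighter Cmpk2 probe, Irf2_AhcKO replicate 2 stood at 1.11, with the other arrays of its group between 0.40 and 0.51. Without it the log2 difference of Cmpk2 was 0.26, against 0.39. On the Bst2 probe, control replicate 1 stood at -0.68, with the other controls between -1.04 and -0.98. Without it the log2 difference of Bst2 was -0.34, against -0.43.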

How the results depend on the processing

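The 6 kept members had the direction reported in every alternative that gave a value, 21 for each and 20 for Rsad2, which had none where all 8 arrays had to be well above background. Not all of these could change a direction. The difference is the same by construction with the deposited series table, no slide term, the replicate block or a trended and robust variance. Under other filters it was also the same wherever the gene was kept. The log2 difference of Uba7 ran from 0.57 to 0.95, of Rsad2 from 0.64 to 1.92, of Cmpk2 from 0.26 to 0.54, of Bst2 from -0.57 to -0.21, of Isg15 from -0.33 to -0.05 and of Ube2l6 from -0.22 to -0.08. The number of members past the threshold was 0 in all but the trended and robust variance, where it was 1 (Uba7).

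The count over all features was less stable than the members. Against 25 features it was 133 with normexp and 133 with a trended and robust variance, 46 where all 8 arrays had to be well above background, 7 with no filter, and 0 with the replicate number as a block and within slide 1 or slide 2 alone. Leaving out each array in turn gave 0 to 25. Fewer arrays or another set of features entered in several of these, and the cause was not tested. The share of higher calls, 56.0% as reported, was 45.0% with median centring.

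Members whose groups did not overlap numbered 1 as reported, 3 with normexp, 2 with median centring, 0 where all 8 arrays had to be well above background (Rsad2 was then not kept), 4 within slide 1 alone, 3 within slide 2 alone, and 1 to 3 without 1 array. Over all features, the groups did not overlap in 45.9% within slide 1 alone and 33.5% within slide 2 alone, and in 5.36% to 9.11% without 1 array. The share was 4.03% with normexp and 3.74% with median centring. The count was 3 without control replicate 2 and 2 without control replicate 3, Irf2_AhcKO replicate 3 or Irf2_AhcKO replicate 4. With the replicate block no other interferon-induced gene passed, against 3. There, 4 members had an unadjusted limma p below 0.05, against 3. Beside them stood 3293 of all 25404 features with the block, against 2980 as reported, so the member count rose along with that of all features. Signal near background limits Usp18, Herc6 and the second Isg15 probe.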

Other observations

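Same-numbered arrays share a slide, so the members were also set out as differences within each number. Uba7 was higher in Irf2_AhcKO in 4 of 4 pairs (1.03, 0.88, 0.45 and 0.69), and so were Rsad2 (0.58, 1.72, 1.07 and 2.76) and Cmpk2 (0.26, 0.40, 0.64 and 0.25). Over all features, 11.9% were higher in 4 of 4 pairs. Bst2 was lower in 4 of 4 pairs (-0.60, -0.52, -0.57 and -0.02), as were 13.2% of all features. Isg15 and Ube2l6 were lower in 3 of 4 pairs each. The dim second Isg15 probe and Usp18 were higher in 2 of 4. With the number as a block, Cmpk2 had an unadjusted limma p of 0.0107 (0.0837 with the slide as a term) and an adjusted p of 0.308.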
